A study of Homo sapiens with 16 samples.

Results

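Genes for surface antigens that serve as targets or markers in acute myeloid leukaemia, and genes for immune checkpoint proteins, were followed across the 4 groups of the study. The 10 members were taken by symbol: CD33, CD38, IL3RA, CD44, CD34 and PROM1 among the antigens, and CD47, HAVCR2, LILRB4 and PDCD1 among the checkpoint genes. All 10 matched 1 row each of the 22445 Ensembl gene IDs in the deposited table, and all 10 passed the filter on low values, as did 22331 IDs in all. The cells were of Molm14, an established human acute myeloid leukaemia line with a rearranged KMT2A gene, kept in RPMI medium with fetal bovine serum. Combo cells received 0.16 uM EPZ5676 and 0.3 uM GSK126 together, iDOT1L cells 0.16 uM EPZ5676 alone, iEZH2 cells 0.3 uM GSK126 alone, and DMSO cells neither compound. By the treatment text, treatment lasted 7 days with medium and compound renewed on day 4, whereas the extraction protocol puts RNA isolation 3 days past a sort, so the time of harvest is uncertain. Each group had 4 libraries of bulk RNA. EPZ5676 inhibits DOT1L, the methyltransferase of histone H3 lysine 79, and GSK126 inhibits EZH2, the methyltransferase of histone H3 lysine 27 in Polycomb repressive complex 2.

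Levels are given as normalised counts, that is, reads per gene scaled between libraries. Normalised totals were 22.4 to 24.1 M per library, and read totals estimated from the spacing of low values were 20.6 to 27.2 M. Nothing in the labels tells whether the 4 libraries of a group came from separate cultures, so the p-values describe the spread among these libraries, and that spread may be technical. All libraries are of 1 line grown without other cells, so the values describe transcripts of Molm14 and not protein at the cell surface or encounters with immune cells. In bulk RNA, a lower level in every cell and fewer cells that carry the transcript cannot be told apart. All 9 monocytic myeloid markers looked for were in the table. Among them were MPO and LYZ at averages of 862 ± 144 and 2463 ± 177 normalised counts in DMSO (SD, n = 4). LYZ shares 39.3% of the 31-base words of its transcripts with other genes, so its level is uncertain.

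Surface antigens of leukaemic blasts are mostly proteins of normal myeloid cells and progenitors, and several are targets of antibodies or engineered T cells. CD33 is a sialic acid-binding lectin of myeloid cells, CD38 an ectoenzyme that consumes NAD, and IL3RA the alpha chain of the interleukin 3 receptor, known as CD123. CD44 binds hyaluronan, while CD34 and PROM1 (known as CD133) mark stem and progenitor cells. Checkpoint proteins restrain immune cells: CD47 signals to macrophages through SIRPA, LILRB4 is an inhibitory receptor of monocytic cells, HAVCR2 encodes the inhibitory receptor TIM-3, and PDCD1 encodes the programmed death receptor, known best from T cells.

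Against DMSO, the combination lowered PDCD1, CD38 and IL3RA and raised CD47, DOT1L inhibition lowered PDCD1 and CD38 and raised CD47, and EZH2 inhibition lowered LILRB4 and IL3RA. CD33, CD44, HAVCR2, CD34 and PROM1 did not pass the test in any of these comparisons. The test was limma on log2(normalised count + 1) over all 22331 genes with Benjamini-Hochberg adjustment, and a gene was called at an adjusted p under 0.05. With Combo 1 member was called higher and 3 lower of 10, against 16% of all genes tested in either direction, 7.22% higher and 8.8% lower. With iDOT1L 1 was higher and 2 lower, against 6.25% of all genes, 3.08% higher and 3.17% lower. With iEZH2 none was higher and 2 were lower, against 3.35% of all genes, 1.3% higher and 2.05% lower. The median log2 fold change of the 10 members was -0.12 with Combo, 0.27 with iDOT1L and -0.17 with iEZH2, beside 0.03, 0.01 and 0.02 over all genes tested. The 3 comparisons share the 4 DMSO libraries.

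**Figure D1:**
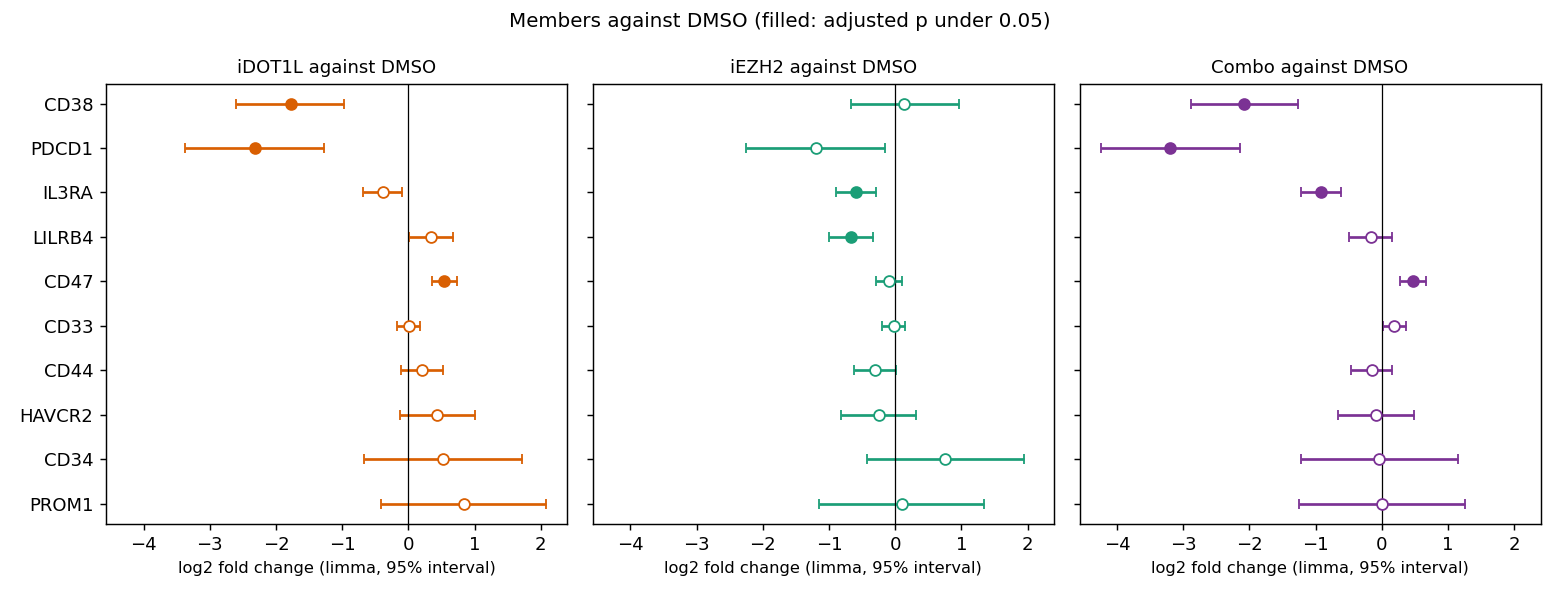
Log2 fold changes of the 10 members against DMSO with 95% intervals from limma (horizontal axis), for iDOT1L, iEZH2 and Combo; filled points are called at an adjusted p under 0.05. CD38 and PDCD1 lie left of 0 and CD47 right of 0 with iDOT1L and Combo, IL3RA is filled with iEZH2 and Combo, and LILRB4 is filled with iEZH2.

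The promoters of the 4 members called with Combo are shown because CD38 and PDCD1 fell in the same 2 comparisons in which CD47 rose, while IL3RA fell in another pair. Each window runs from 250 bases before to 50 bases after the RefSeq start, with the start base at position 0, on GRCh38.p14, and is written 5′ to 3′ on the strand of the gene. Capitals mark CpG dinucleotides, the sites of DNA methylation, which was not measured. The windows lie at chr4:15778078-15778377 (+ strand, CD38), chr2:241858845-241859144 (- strand, PDCD1), chrX:1336535-1336834 (+ strand, IL3RA) and chr3:108090982-108091281 (- strand, CD47).
CD38: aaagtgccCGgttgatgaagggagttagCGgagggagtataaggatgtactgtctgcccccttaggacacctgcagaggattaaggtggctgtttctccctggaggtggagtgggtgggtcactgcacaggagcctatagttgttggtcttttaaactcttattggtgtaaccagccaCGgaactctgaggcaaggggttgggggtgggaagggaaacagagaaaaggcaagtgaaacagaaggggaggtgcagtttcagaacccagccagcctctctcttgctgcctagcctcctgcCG
PDCD1: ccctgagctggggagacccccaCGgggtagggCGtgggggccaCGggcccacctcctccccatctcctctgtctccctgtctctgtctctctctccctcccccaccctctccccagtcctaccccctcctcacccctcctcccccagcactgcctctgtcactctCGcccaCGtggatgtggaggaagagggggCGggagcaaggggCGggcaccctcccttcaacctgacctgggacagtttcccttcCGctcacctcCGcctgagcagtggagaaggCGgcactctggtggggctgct
IL3RA: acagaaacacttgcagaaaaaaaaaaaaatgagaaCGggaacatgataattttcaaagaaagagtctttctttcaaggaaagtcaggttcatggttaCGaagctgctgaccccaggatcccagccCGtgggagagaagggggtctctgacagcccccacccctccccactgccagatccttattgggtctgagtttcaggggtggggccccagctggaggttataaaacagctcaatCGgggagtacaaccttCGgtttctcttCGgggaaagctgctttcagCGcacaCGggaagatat
CD47: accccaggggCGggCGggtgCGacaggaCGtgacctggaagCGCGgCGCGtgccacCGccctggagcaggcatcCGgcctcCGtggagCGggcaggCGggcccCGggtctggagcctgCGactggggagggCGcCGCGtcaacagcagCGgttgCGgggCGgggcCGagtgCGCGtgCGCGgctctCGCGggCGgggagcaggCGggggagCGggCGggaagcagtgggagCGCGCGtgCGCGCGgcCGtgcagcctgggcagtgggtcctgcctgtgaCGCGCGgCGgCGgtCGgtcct

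CD47 had a CpG-dense window with 45 CpG in 300 bases, and 96.5% of 35087 RefSeq promoter windows held fewer. CD38 had 4, IL3RA 8 and PDCD1 10 CpG, all below the median of 14. The window of LILRB4, not printed, also held 4, and those of CD33, CD44 and CD34 held 3, 18 and 19. The CD47 window held 6 matches to the GC box (GGGCGG on either strand), of which those at -243 to -238 and -239 to -234 overlap, and PDCD1 held 2, at -59 to -54 and -46 to -41. A GC box was in 44.9% of all windows. Of the 9 members with a window, IL3RA alone had the TATA box letters TATAAA, at -29 to -24, which 11.5% of windows held on either strand. PDCD1 also held the PU.1 or ETS letters GAGGAAG at -69 to -63, found in 13.6% of windows, and the MEIS letters TGACAG on the opposite strand at -95 to -90, found in 15.8%. IL3RA held the MEIS letters at -104 to -99 and the CEBP letters TTGCNNAA at -240 to -233, found in 10.5%. CD38 and LILRB4 held none of the 10 motifs searched on both strands, which besides these 5 were RUNX (TGTGGT, in 13.1% of windows), AP-1 (TGANTCA, 7.7%), the sterol response element (TCACNCCAC, 1.13%), NRF1 (1.24%) and EGR (GCGTGGGCG, 0.789%). Members not called against DMSO held matches too. GC boxes were in windows of CD33, CD44, CD34 and PROM1, PU.1 or ETS letters in those of CD33 and PROM1, and AP-1 letters in PROM1. A match describes letters, not a bound factor. For 8 of the members 1 RefSeq window per gene was searched and for PROM1 4, while HAVCR2 was not searched.

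CD38 (ENSG00000004468, chr4:15778275-15853230, + strand, GRCh38), the antigen targeted by daratumumab in myeloma, fell with DOT1L inhibition, with or without the EZH2 inhibitor. It had 52.8, 81.3, 71.9 and 50.6 normalised counts in the Combo libraries and 57.7, 133, 67.0 and 70.0 in the iDOT1L libraries. It had 243, 661, 359.6 and 136 in the iEZH2 libraries, against 209, 435.5, 221 and 261 in the DMSO libraries. Every Combo and iDOT1L library lay below every iEZH2 and DMSO library, and the iEZH2 libraries spread on both sides of DMSO. Means were 64.2 ± 14.9 with Combo, 81.9 ± 34.5 with iDOT1L, 349.8 ± 227 with iEZH2 and 282 ± 105 with DMSO (SD, n = 4 each). The log2 fold change against DMSO was -2.08 ± 0.38 (SE) with Combo, 0.236 times the DMSO level (adjusted p = 0.00116), and -1.78 ± 0.38 with iDOT1L, 0.29 times (adjusted p = 0.00889). With iEZH2 it was 0.14 with a 95% interval of -0.67 to 0.96 (adjusted p = 0.905), and its sign turned when single libraries were left out (-0.24 to 0.52). CD38 was also lower than with iEZH2 in Combo cells (-2.23, adjusted p = 0.00237) and in iDOT1L cells (-1.93, adjusted p = 0.00453). Combo and iDOT1L, the 2 lowest groups, were not separated (-0.30, 95% interval -1.11 to 0.52, adjusted p = 0.762).

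**Figure D2:**
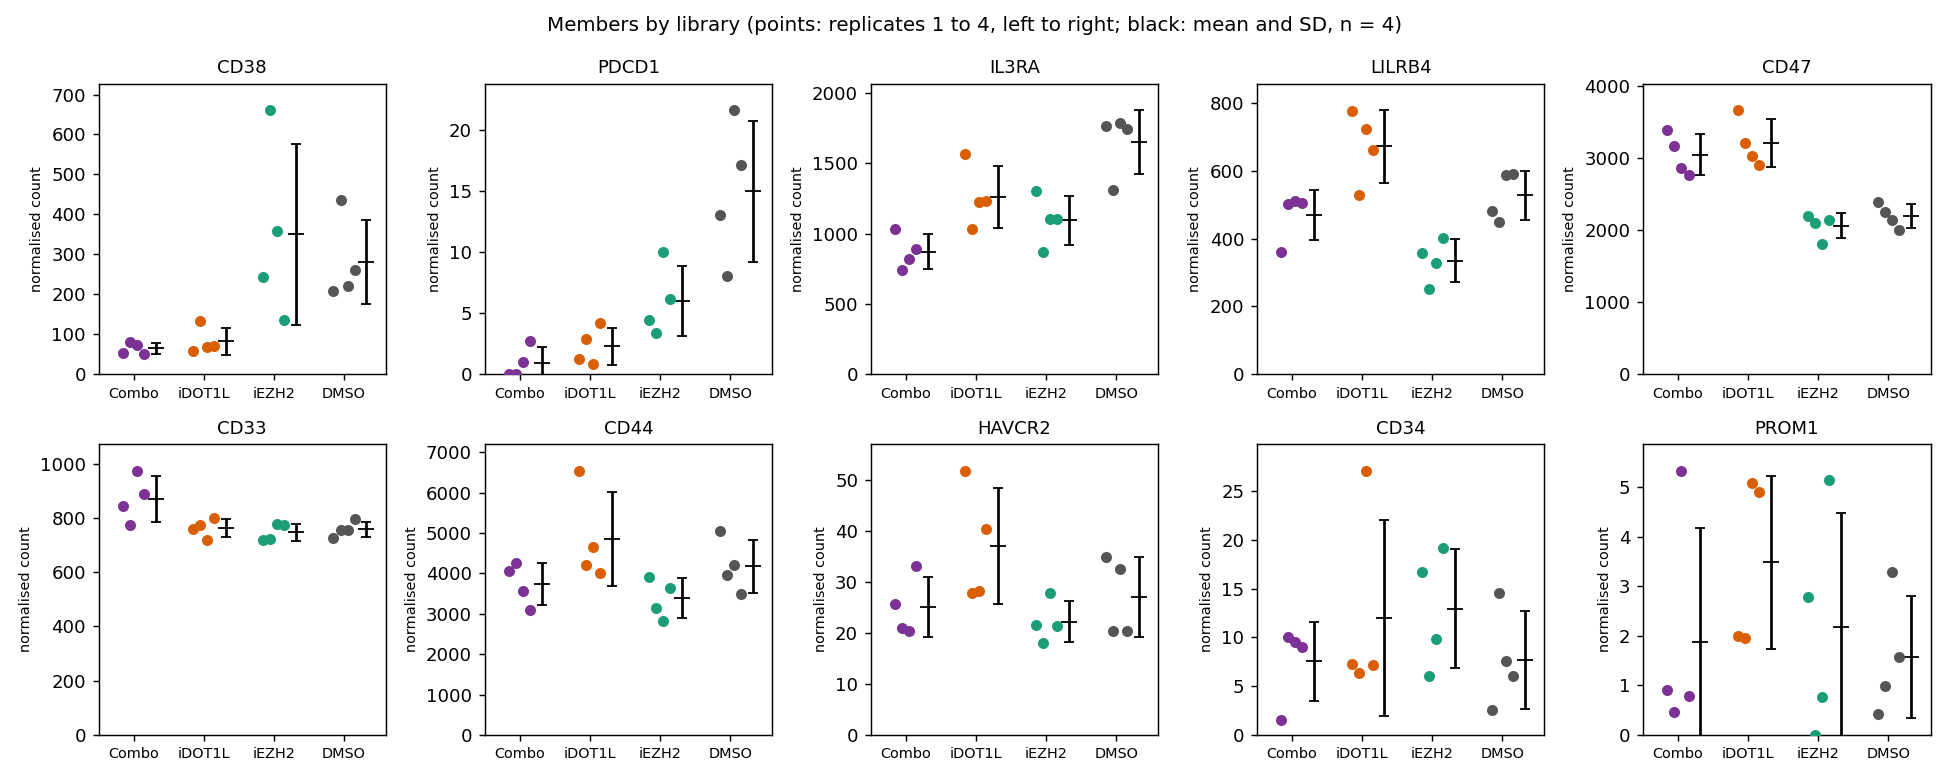
Normalised counts of the 10 members in each library (vertical axis, from 0), by group; coloured points are replicates 1 to 4 from left to right, and black bars are the mean and SD of 4 libraries, with bars that would pass below 0 ending there. CD38 is low in all Combo and iDOT1L libraries, CD47 is high in them, and IL3RA is lowest on average with Combo. Each panel has its own scale, and CD34 and PROM1 reach at most 27.1 and 5.33.

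None of the other listed ectoenzymes of NAD and extracellular nucleotides was called lower. Of the 5, BST1, NT5E, ENTPD1, ENPP1 and ENPP3, 2 were called higher and none lower with Combo. The same counts held with iDOT1L, and none was called with iEZH2. Over all genes tested 16% were called with Combo, 6.25% with iDOT1L and 3.35% with iEZH2, in either direction. BST1, the paralogue of CD38 that also cleaves NAD, rose with Combo (243 ± 26.4 against 153 ± 18.4 normalised counts in DMSO; log2 fold change 0.66 ± 0.16, adjusted p = 0.00682) and with iDOT1L (276 ± 33.3; 0.84 ± 0.16, adjusted p = 0.00241). ENTPD1, which degrades extracellular ATP, rose with Combo by 0.72 ± 0.12 (adjusted p = 0.000343) and with iDOT1L by 0.60 ± 0.12 (adjusted p = 0.00405). PECAM1, the surface ligand of CD38, fell with Combo (1685 ± 275 against 2948 ± 307 in DMSO; -0.82, adjusted p = 0.00101) and with iEZH2 (1621 ± 189.7; -0.86, adjusted p = 0.00358), and with iDOT1L it had 2753 ± 710.1 (-0.13, adjusted p = 0.736). Of 9 monocytic myeloid markers, some rose and some fell in the groups where CD38 fell. Their sum ran over 32841 to 43013 normalised counts with Combo, 28461 to 34237 with iDOT1L, 19499 to 24638 with iEZH2 and 20592 to 22289 with DMSO. LYZ averaged 15958 ± 4612 with Combo and 9051 ± 2147 with iDOT1L, against 2463 ± 177 with DMSO, and MPO 5237 ± 536 with Combo and 5031 ± 519 with iDOT1L, against 862 ± 144 with DMSO. With Combo 2 of the 9 rose, LYZ (2.65) and MPO (2.61), and 2 fell, CD68 and ITGAM. With iDOT1L 2 rose, MPO (2.55) and LYZ (1.85), and 2 fell, ITGAM among them (-1.29). With iEZH2 FCGR1A alone fell (-0.50), or 4 of 9 were called under the replicate block, where 9.76% of all genes were called. LYZ, CD68 and FCGR1A share 39.3%, 81.2% and 80.6% of their 31-base words with other genes, so their levels are uncertain. CEBPA, also among the 9, shares 39.8%, so the sum is uncertain too. The part of these marker changes in the CD38 values was not tested.

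IL3RA (ENSG00000185291, chrX:1336616-1382689, + strand), the target known as CD123, had its lowest mean in cells given both compounds. It had 1036, 742, 822 and 893 normalised counts in Combo libraries and 1565, 1036, 1223 and 1229.9 in iDOT1L libraries. It had 1303, 873, 1102 and 1106 in iEZH2 libraries, against 1768, 1308, 1786 and 1743 in DMSO libraries. Combo and iEZH2 lay wholly below DMSO, while the highest iDOT1L library lay above the lowest DMSO library. Means were 873 ± 125 with Combo, 1263 ± 220.0 with iDOT1L, 1096 ± 176 with iEZH2 and 1651 ± 229 with DMSO (SD, n = 4 each). Combo differed from DMSO by -0.92 ± 0.14 on the log2 scale, 0.529 times (adjusted p = 0.000162), and this call held when any of the 8 libraries was left out. iEZH2 differed by -0.59 ± 0.14 (adjusted p = 0.0249), and the call was lost without iEZH2 replicate 2, 3 or 4 or DMSO replicate 1, 3 or 4 (adjusted p up to 0.0895). The iEZH2 call was kept when replicate number entered the fit as a block (adjusted p = 4.02e-05), a setting that called 9.76% of all genes there. iDOT1L differed by -0.39 ± 0.14 (adjusted p = 0.129). With the replicate block the same difference was called (adjusted p = 0.00101), and the calls among all genes rose to 12.2% for this comparison. Neighbours in the order Combo, iEZH2, iDOT1L were not separated (Combo against iEZH2 -0.32, adjusted p = 0.273, but called with the replicate block at 0.0059; iDOT1L against iEZH2 0.20, adjusted p = 0.492).

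The chains that work with IL3RA or like it were not called lower. CSF2RB, the beta chain that IL3RA shares with the receptors for granulocyte-macrophage colony-stimulating factor and interleukin 5, rose with Combo (268 ± 26.9 against 189.9 ± 8.19 normalised counts in DMSO; 0.49, adjusted p = 0.00624) and with iDOT1L (275 ± 15.3; 0.53, adjusted p = 0.00808), and had 178 ± 22.5 with iEZH2 (-0.10, adjusted p = 0.749). CSF2RA, the alpha chain of the granulocyte-macrophage receptor, which lies next to IL3RA, averaged 623 ± 29.7 with Combo, 750.5 ± 71.8 with iDOT1L, 474 ± 66.1 with iEZH2 and 602 ± 111 with DMSO, and passed in no comparison with DMSO. IL3, the gene of the ligand, was not analysed here.

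PDCD1 (ENSG00000188389, chr2:241849881-241858908, - strand) was a gene of few reads that was lower still with DOT1L inhibition. It had 0, 0, 0.983 and 2.73 normalised counts in Combo libraries and 1.27, 2.90, 0.853 and 4.15 in iDOT1L libraries. It had 4.47, 3.36, 9.96 and 6.17 in iEZH2 libraries, against 13.04, 8.05, 21.6 and 17.1 in DMSO libraries. Combo and iDOT1L lay wholly below DMSO, and 1 iEZH2 library lay above the lowest DMSO library. At this level, where 1 read is worth about 1 normalised count, single reads decide the values. On the log2(normalised count + 1) scale, which understates changes of low genes, the difference from DMSO was -3.20 ± 0.50 with Combo (adjusted p = 0.000177) and -2.32 ± 0.50 with iDOT1L (adjusted p = 0.00727), and both calls held when any library was left out. With iEZH2 it was -1.20 ± 0.50 (adjusted p = 0.236). Combo lay below iEZH2 by -2.0 ± 0.50 (adjusted p = 0.0284), a call that was lost with a pseudocount of 5 (adjusted p = 0.0613), on the deposited scale (adjusted p = 0.0501) and without Combo replicate 1, 2 or 3 or iEZH2 replicate 1 or 3 (adjusted p up to 0.111). In the order Combo, iDOT1L, iEZH2, DMSO no neighbours were separated.

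The ligands of the PDCD1 product were at a few counts in all groups. CD274 averaged 7.87 ± 3.85 with Combo, 2.97 ± 1.24 with iDOT1L, 4.57 ± 3.53 with iEZH2 and 4.58 ± 6.95 with DMSO, and PDCD1LG2 averaged 1.79 ± 0.989 with Combo, 5.58 ± 3.64 with iDOT1L, 3.02 ± 3.22 with iEZH2 and 2.45 ± 1.084 with DMSO. Neither was called against DMSO (log2 fold change with Combo 1.37, adjusted p = 0.195, for CD274 and -0.31, adjusted p = 0.78, for PDCD1LG2). Because PDCD1 is best known from T cells, T cell markers were looked at beside it. Of 6 listed, 4 were in the table, and CD3E and CD2 were not analysed here. The summed level of those 4 was 105 to 254 normalised counts with Combo, 120 to 209 with iDOT1L, 96.3 to 192 with iEZH2 and 121 to 198 with DMSO, mostly TRAC, at 146 ± 46.4 with Combo, 139 ± 30.3 with iDOT1L, 117 ± 36.3 with iEZH2 and 151 ± 37.2 with DMSO. CD3D and CD3G, subunits of the T cell receptor complex, averaged 14.0 ± 8.70 and 6.285 ± 1.76 with Combo and 7.52 ± 3.07 and 7.19 ± 1.82 with DMSO, and were called in no comparison with DMSO. CD8A, the co-receptor of cytotoxic T cells, was called higher with Combo (22.5 ± 9.06 against 4.78 ± 0.766, log2 fold change 1.93, adjusted p = 0.00133), opposite to PDCD1. No T cell marker was called with iDOT1L or with iEZH2, except 1 with iEZH2 in the fit with the replicate block. Of all genes tested 16% were called with Combo, and 9.76% with iEZH2 under that block.

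CD47 (ENSG00000196776, chr3:108043094-108091862, - strand) was the only member that rose against DMSO, with DOT1L inhibition alone and in combination. It had 3379.7, 3157, 2863 and 2758 normalised counts in Combo libraries and 3661, 3204, 3028 and 2901 in iDOT1L libraries. It had 2187, 2098, 1807 and 2135 in iEZH2 libraries, against 2386, 2243, 2132.5 and 1999 in DMSO libraries. The Combo and iDOT1L libraries all lay above the iEZH2 and DMSO libraries. Means were 3039.7 ± 283 with Combo, 3198 ± 333 with iDOT1L, 2057 ± 170.4 with iEZH2 and 2190.1 ± 164 with DMSO (SD, n = 4 each). The log2 fold change was 0.54 ± 0.09 with iDOT1L, 1.46 times (adjusted p = 0.00116), and 0.47 ± 0.09 with Combo, 1.39 times (adjusted p = 0.00158), and leaving out any library kept both calls. iEZH2 differed from DMSO by -0.09 (95% interval -0.29 to 0.11, adjusted p = 0.709). Combo exceeded iEZH2 by 0.56 (adjusted p = 0.00118) and iDOT1L exceeded iEZH2 by 0.63 (adjusted p = 0.000266), while Combo and iDOT1L differed by -0.07 (95% interval -0.27 to 0.12, adjusted p = 0.762).

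Of the 3 listed genes whose products act on CD47, none was called higher. SIRPA, the receptor of CD47 on phagocytes, fell with Combo (2646 ± 94.3 against 3214 ± 189 normalised counts in DMSO; -0.28, adjusted p = 0.0116) and did not pass with iDOT1L (-0.07, adjusted p = 0.694) or iEZH2 (-0.14, adjusted p = 0.379). SIRPA shares 21.0% of its 31-base words with other genes, mainly SIRPB1, so its level is uncertain. QPCTL, the cyclase that completes the SIRPA-binding end of CD47, had log2 fold changes of -0.24 with Combo, -0.14 with iDOT1L and -0.25 with iEZH2, and THBS1, the matrix ligand thrombospondin, of 0.26 with Combo, -0.44 with iDOT1L and -0.23 with iEZH2, none of them called.

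LILRB4 (ENSG00000186818, chr19:54643889-54670359, + strand), an inhibitory receptor of the leukocyte immunoglobulin-like family that marks monocytic leukaemias, had its lowest mean with EZH2 inhibition and its highest with DOT1L inhibition. It had 360.1, 503, 509.9 and 506 normalised counts in Combo libraries and 776, 528, 724 and 663 in iDOT1L libraries. It had 357, 252, 327 and 402 in iEZH2 libraries, against 482, 449, 588 and 592 in DMSO libraries. Only iEZH2 lay wholly outside the DMSO range. The log2 fold change against DMSO was -0.67 ± 0.16 with iEZH2, 0.63 times (adjusted p = 0.0223), and this call was lost without iEZH2 replicate 2 or 3 or DMSO replicate 3 or 4 (adjusted p up to 0.0844). The fit with the replicate block, which called 9.76% of all genes in this comparison, kept the iEZH2 call (adjusted p = 0.00326). The log2 fold change was 0.34 with iDOT1L (adjusted p = 0.256) and -0.17 with Combo (adjusted p = 0.519). The 2 single treatments differed from each other by 1.01 ± 0.16, with 673 ± 107 in iDOT1L and 335 ± 63.1 in iEZH2 (2.02 times, adjusted p = 0.000436), and every iDOT1L library lay above every iEZH2 library. Means were 469.8 ± 73.2 with Combo and 528 ± 73.2 with DMSO, between the 2. Of its 31-base words 19.9% occur in other genes, mainly the pseudogene VN1R105P inside the same locus (12.2%).

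Among 9 other genes of the LILR family, all in the table, 2 were called higher and none lower with Combo. With iDOT1L 1 was called higher, and none was called with iEZH2. These counts stand beside 16%, 6.25% and 3.35% of all genes tested, in the same order. LILRB1, an inhibitory relative that lies 6361 bases from LILRB4, rose with Combo (37.6 ± 2.48 against 20.2 ± 7.67 normalised counts in DMSO; 0.94, adjusted p = 0.0274) and with iDOT1L (53.3 ± 11.2; 1.41, adjusted p = 0.00391). LILRA4 had 2.22, 1.88, 3.09 and 6.09 normalised counts in Combo libraries, against 1.25, 0, 0 and 0 in DMSO libraries, and was called with Combo (adjusted p = 0.0162). Both share over 20% of their 31-base words with other genes (LILRB1 35.3%, LILRA4 21.9%), so their levels are uncertain. The ligands known for LILRB4 are APOE and fibronectin. APOE averaged 10.1 ± 4.21 with Combo and 6.47 ± 1.85 with DMSO and passed in no comparison with DMSO, and FN1 rose with iDOT1L (111 ± 24.6 against 70.1 ± 12.8 in DMSO; 0.64, adjusted p = 0.0468) and had log2 fold changes of 0.50 with Combo (adjusted p = 0.0796) and 0.44 with iEZH2 (adjusted p = 0.241).

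The other 5 members were not called against DMSO. CD33 (ENSG00000105383, chr19:51225064-51243860, + strand), the target of gemtuzumab, had 845, 773, 974 and 886 normalised counts with Combo, against 726, 755, 755 and 795 with DMSO. Its iDOT1L libraries ran from 719 to 799 and its iEZH2 libraries from 717 to 777, both overlapping the DMSO range, while 3 of 4 Combo libraries lay above it. The log2 fold change with Combo was 0.19 (95% interval 0.02 to 0.37, adjusted p = 0.131), and it was called after quantile normalisation (0.26, adjusted p = 0.049). With iDOT1L it was 0.01 (95% interval -0.17 to 0.18) and with iEZH2 -0.02 (-0.20 to 0.15). Of 8 CD33-related Siglecs 7 were in the table, and SIGLEC10 alone was called, higher with iDOT1L (107 ± 9.01 against 56.0 ± 15.3, log2 fold change 0.95, adjusted p = 0.00824). It shares 33.2% of its words with other genes. Of all genes tested 6.25% were called with iDOT1L.

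CD44 (ENSG00000026508, chr11:35138870-35232402, + strand), the hyaluronan receptor, had 4065, 4254, 3565 and 3104 normalised counts with Combo and 6544, 4208, 4656 and 4000.4 with iDOT1L. It had 3924, 3139.7, 2822 and 3642 with iEZH2, against 5059.8, 3958, 4207 and 3482 with DMSO. All groups overlapped DMSO, and the log2 fold changes were -0.15 with Combo (95% interval -0.47 to 0.16), 0.20 with iDOT1L (-0.11 to 0.52) and -0.30 with iEZH2 (-0.62 to 0.01). Every iDOT1L library lay above every iEZH2 library, a difference of 0.50 ± 0.15 with an adjusted p of 0.0501. In the fit with the replicate block, which called 14.3% of all genes in this comparison, it was called (adjusted p = 0.00341). Of the enzymes that make its ligand hyaluronan, HAS3 averaged 92.0 ± 24.4 with Combo and 73.9 ± 18.3 with DMSO, and HAS1 and HAS2 averaged under 2 normalised counts in each group. None of them was called, nor was SPP1, the gene of the CD44 ligand osteopontin (-1.0 with Combo, adjusted p = 0.436).

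HAVCR2 (ENSG00000135077, chr5:157085832-157142869, - strand) had 25.7, 21.0, 20.5 and 33.1 normalised counts with Combo and 51.8, 27.8, 28.3 and 40.4 with iDOT1L. It had 21.6, 18.1, 27.8 and 21.4 with iEZH2, against 34.9, 20.3, 32.6 and 20.4 with DMSO. The groups overlapped, and the log2 fold changes were -0.09 with Combo (95% interval -0.66 to 0.48), 0.44 with iDOT1L (-0.13 to 1.00) and -0.25 with iEZH2 (-0.82 to 0.32). MED7 overlaps HAVCR2 on the same strand, and it was not called against DMSO either. Of the genes whose products bind HAVCR2, BAG6 fell with Combo (-0.19, adjusted p = 0.0337), while HMGB1 (0.28, adjusted p = 0.0873), LGALS9 (-0.11, adjusted p = 0.323) and CEACAM1 (-0.74, adjusted p = 0.348) did not pass. LGALS9 shares 22.7% of its 31-base words, mainly with LGALS9C, and is uncertain.

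The stem cell antigens were near the limit of detection. CD34 (ENSG00000174059, chr1:207880972-207911402, - strand) had 1.54, 10.1, 9.56 and 9.02 normalised counts with Combo, 7.24, 6.36, 27.1 and 7.20 with iDOT1L, and 16.7, 5.99, 9.79 and 19.2 with iEZH2, against 2.50, 14.5, 7.60 and 6.04 with DMSO. PROM1 (ENSG00000007062, chr4:15963076-16084378, - strand) had 0.912, 0.461, 5.33 and 0.779 with Combo, 2.00, 1.96, 5.09 and 4.91 with iDOT1L, and 2.78, 0, 0.765 and 5.15 with iEZH2, against 0.431, 0.987, 3.29 and 1.58 with DMSO. Libraries of all groups were interleaved. With Combo the 95% intervals of their log2 fold changes were -1.22 to 1.15 for CD34 and -1.25 to 1.25 for PROM1. With Combo a 2-fold change in either direction was thus not excluded. The intervals for CD34 and PROM1 were -0.67 to 1.71 and -0.41 to 2.08 with iDOT1L. With iEZH2 they were -0.43 to 1.95 and -1.15 to 1.34.

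Without the replicate block, members were called in the treatment comparisons with iEZH2 and not in Combo against iDOT1L. Combo against iEZH2 gave 1 member higher (CD47) and 2 lower (CD38 and PDCD1), against 3.81% of all genes in either direction. iDOT1L against iEZH2 gave 2 higher (CD47 and LILRB4) and 1 lower (CD38), against 6.94% of all genes. Combo against iDOT1L gave no call among the 10 by limma without the replicate block, where 2.58% of all genes were called. The closest was IL3RA (-0.53 ± 0.14, adjusted p = 0.0569), whose Combo libraries all lay below its iDOT1L libraries, and which was called without Combo replicate 1 or iDOT1L replicate 2 (lowest adjusted p = 0.0338). LILRB4 followed (-0.52 ± 0.16, adjusted p = 0.0895), also without overlap, and was called without iDOT1L replicate 2 (adjusted p = 0.0443). The limma fit with the replicate block called IL3RA, LILRB4 and CD44 here (adjusted p = 0.000177, 0.0188 and 0.0401), and 10.0% of all genes. The interaction term, Combo minus iDOT1L minus iEZH2 plus DMSO, asks whether the combination departs from the sum of the single changes on the log2 scale. No member was called for it, none had an unadjusted p under 0.05, and 0.0% of the 22331 genes were called. Its interval was -0.36 to 0.49 for IL3RA, -0.26 to 0.30 for CD47, -1.59 to 0.71 for CD38 and -1.16 to 1.81 for PDCD1, and for CD38 and PDCD1 it reached past 1 log2 unit on at least 1 side.

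Ligands, co-receptors and downstream enzymes of the members were counted as 1 list of 23, of which 22 were tested. With Combo 2 rose, CSF2RB among them, and 5 fell (INPP5D, PECAM1, PTPN6, SIRPA and BAG6). With iDOT1L 2 rose (CSF2RB and FN1) and 1 fell (INPP5D), and with iEZH2 3 fell (INPP5D, PECAM1 and PTPN6). The replicate block, which called 9.76% of all genes for iEZH2 against DMSO, raised the calls with iEZH2 to 5, adding LGALS9 as lower and HMGB1 as higher. The median log2 fold change of the list was -0.02 with Combo, 0.01 with iDOT1L and -0.09 with iEZH2. Over all genes tested the median was 0.03, 0.01 and 0.02, and 16%, 6.25% and 3.35% were called, in the same order. INPP5D, an inositol phosphatase recruited by inhibitory receptors, was the partner that fell in all 3 comparisons. It had 2355, 2215, 2454 and 2288 normalised counts in Combo libraries, 4133.5, 2909.8, 3276 and 3331 in iDOT1L libraries and 3663, 2673, 3006 and 2829.8 in iEZH2 libraries, against 5892, 4300.5, 5635 and 5389 in DMSO libraries. Each treated library lay below the lowest DMSO library. The log2 fold change was -1.18 ± 0.12 with Combo (adjusted p = 1.35e-06), -0.64 ± 0.12 with iDOT1L (adjusted p = 0.00191) and -0.80 ± 0.12 with iEZH2 (adjusted p = 0.00075). PTPN6, a tyrosine phosphatase of the same receptors, fell with Combo (-0.40, adjusted p = 0.00341) and iEZH2 (-0.40, adjusted p = 0.0132), had -0.26 with iDOT1L (adjusted p = 0.0902, and 0.00894 with the replicate block), and its relative PTPN11 did not pass (-0.25 with Combo, adjusted p = 0.334).

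Other antigens used or studied as targets or markers in this leukaemia were mostly called lower where they were called with Combo or iEZH2. Of 35 listed, 34 were tested: 4 rose and 11 fell with Combo, 4 rose and 4 fell with iDOT1L, and 8 fell with iEZH2. Over all genes tested 7.22% rose and 8.8% fell with Combo, 3.08% and 3.17% with iDOT1L, and 1.3% and 2.05% with iEZH2. The median log2 fold change was -0.23 with Combo, 0.08 with iDOT1L and -0.34 with iEZH2, beside 0.03, 0.01 and 0.02 over all genes tested. With the replicate block 15 were called with iDOT1L and 15 with iEZH2, where 12.2% and 9.76% of all genes were then called. The called genes with the lowest adjusted p included the receptor kinase gene FLT3 (Combo -1.41, iEZH2 -0.82). They also included ADGRE5 (Combo -1.45, iDOT1L -0.95) and ADGRE2 (Combo -1.05), both adhesion receptors with over 20% of words shared with other genes. IL1RAP, the co-receptor of interleukin 1 (iEZH2 -0.49), and CCR1, a chemokine receptor (iEZH2 -1.14), were among them. Upward with iDOT1L were CLEC12A, an inhibitory lectin (3.40), and the scavenger receptor CD36 (1.79). CLEC12A and CD36 were also higher on average with Combo, at 187 ± 54.7 and 2853 ± 263 normalised counts. With DMSO they averaged 11.9 ± 6.42 and 1012 ± 145.

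Other checkpoint genes, a list that shares genes with those above, gave 4 higher and 5 lower of 27 tested with Combo. With iDOT1L 4 were higher and 2 lower, and with iEZH2 2 were lower, or 5 called with the replicate block. Among all genes tested 16% were called with Combo, 6.25% with iDOT1L and 3.35% with iEZH2, or 9.76% for iEZH2 with the block. NECTIN2, a ligand of TIGIT and its relatives, fell in each comparison: it averaged 853 ± 83.8 with Combo, 1056 ± 23.9 with iDOT1L and 977 ± 34.0 with iEZH2, against 1434 ± 39.9 normalised counts with DMSO (log2 fold changes -0.75, -0.44 and -0.55, adjusted p = 2.85e-06, 0.00175 and 0.000745). TNFRSF14, the partner of BTLA, also fell in each: it averaged 21.6 ± 6.68 with Combo, 35.3 ± 5.24 with iDOT1L and 40.1 ± 6.52 with iEZH2, against 89.1 ± 18.6 with DMSO (log2 fold changes -2.02, -1.30 and -1.12, adjusted p = 9.91e-06, 0.00224 and 0.0127). CD160, a further partner of TNFRSF14, rose with Combo (42.3 ± 4.25 against 19.9 ± 6.09; 1.1, adjusted p = 0.0106). HAVCR1, the only other TIM family gene tested, was at 0 to 4.65 normalised counts and was not called.

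Markers of other cell types were compared in the same way. Shares of all genes called were 16% with Combo, 6.25% with iDOT1L and 3.35% with iEZH2. Under the replicate block they were 12.2% with iDOT1L and 9.76% with iEZH2. Of 5 B cell genes 1 rose (CD79A, 1.0) and 2 fell (PAX5, -1.02, and CD79B, -2.24) with Combo, 1 rose (CD79A, 1.13) and 1 fell (PAX5, -0.71) with iDOT1L, and none was called with iEZH2. Their summed level was 529.7 to 847 normalised counts with Combo, 687 to 892 with iDOT1L, 747 to 1358 with iEZH2 and 1011 to 1425 with DMSO. Of the natural killer genes 2 were tested and of the erythroid genes 3, and none was called against DMSO, except 1 natural killer gene with iEZH2 under the replicate block. KLF1, an erythroid transcription factor gene, averaged under 2 normalised counts in each group. Of 3 megakaryocyte genes GP9 fell with Combo (-1.20, adjusted p = 0.00387), and of 3 stromal genes COL1A1 rose with Combo (1.68, adjusted p = 0.00562). Under the replicate block 1 stromal gene was also called with iDOT1L. Of 3 genes tied to the line itself, KMT2A, MLLT3 and FLT3, 2 fell with Combo, 1 with iDOT1L and 1 with iEZH2, FLT3 each time. KMT2A averaged 1634 ± 417 with Combo and 2610.5 ± 574 with DMSO and was called lower (-0.68, adjusted p = 0.0134), with 20.2% of its words shared with other genes. The part of these markers in the members' values was not tested.

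The genes around the members were examined within 200 kb, and both the window and the neighbours named were chosen after values were seen. Of 44 protein-coding neighbours tested, 7 were higher and 3 lower with Combo, and 4 were higher and 1 lower with iDOT1L. With iEZH2 1 was higher and 1 lower. Over all genes tested 16% were called with Combo, 6.25% with iDOT1L and 3.35% with iEZH2, in either direction. Of 5 neighbours of CD38, 2 rose with Combo and iDOT1L, where CD38 fell: BST1, 39962 bases away, is described above, and FAM200B, 72710 bases away, averaged 294 ± 31.9 with Combo and 259.7 ± 27.6 with iDOT1L, against 169.6 ± 17.7 normalised counts with DMSO (0.79, adjusted p = 0.000481, and 0.61, adjusted p = 0.00937). FBXL5 (-0.15 with Combo and 0.03 with iDOT1L), CC2D2A (0.16 with Combo and -0.21 with iDOT1L) and PROM1, 109846 bases from CD38 and near 0, were not called. CRLF2, which encodes a chain of the thymic stromal lymphopoietin receptor and lies 123866 bases from IL3RA, fell in all 3 comparisons with DMSO. It had 0.984, 0.885, 0.773 and 1.99 normalised counts in Combo libraries, 8.56, 3.18, 6.46 and 5.38 in iDOT1L libraries and 13.1, 3.39, 16.2 and 6.40 in iEZH2 libraries, against 39.4, 19.2, 41.8 and 34.3 in DMSO libraries. All treated libraries lay below the lowest DMSO library, and the log2 fold change was -3.98 ± 0.43 with Combo (adjusted p = 4.05e-06), -2.34 ± 0.43 with iDOT1L (adjusted p = 0.00215) and -1.82 ± 0.43 with iEZH2 (adjusted p = 0.0234). With Combo CRLF2 was near 0, where 1 read is worth about 1 normalised count, so the size of its change there is uncertain. SLC25A6, on the other side of IL3RA at 3463 bases, rose with Combo (0.27, adjusted p = 0.0182). NEU4, a sialidase gene 32468 bases from PDCD1, fell with Combo (4.93 ± 1.71 against 33.4 ± 9.52; -2.52, adjusted p = 0.00364), as PDCD1 did, and CYFIP2, 123210 bases from HAVCR2, rose with Combo (1.41, adjusted p = 1e-04) and iEZH2 (1.12, adjusted p = 0.00502).

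**Figure D3:**
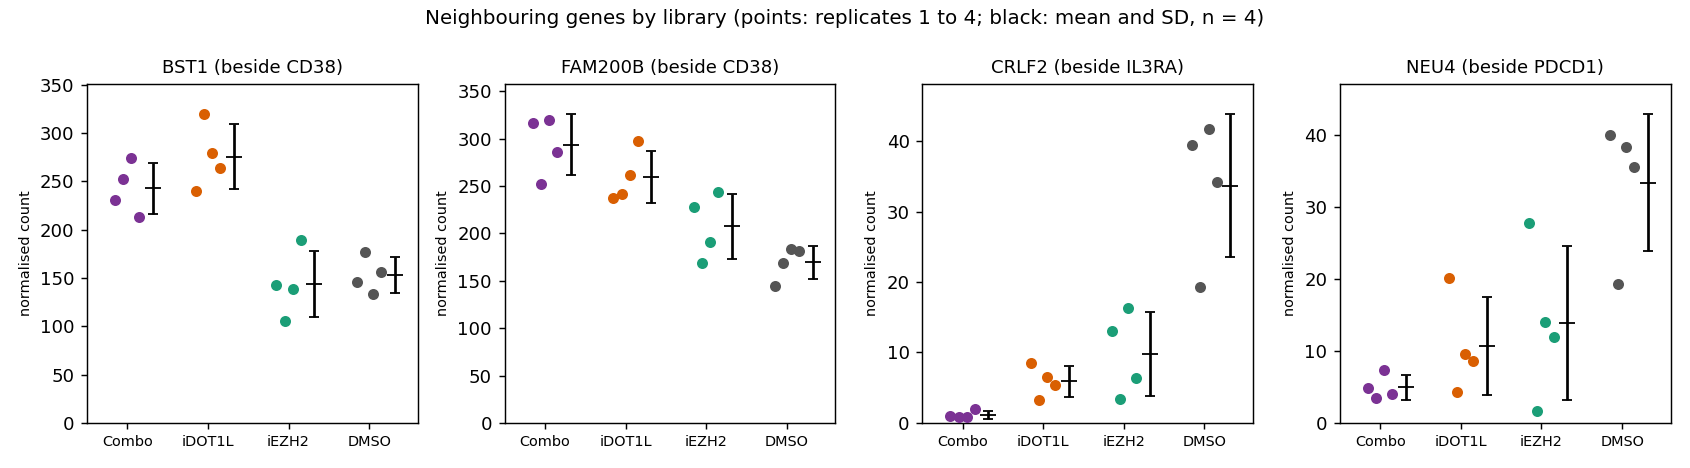
Normalised counts (vertical axis, from 0) of 4 genes within 200 kb of members in each library, by group. Points are replicates 1 to 4 and black bars the mean and SD of 4 libraries. BST1 and FAM200B, near CD38, are higher with Combo and iDOT1L, while CRLF2, near IL3RA, and NEU4, near PDCD1, are lowest with Combo.

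Some members differed between replicate numbers in the same way in every group, a pattern noticed in the values. IL3RA was lowest in replicate 2 and CD38 was highest in replicate 2 in all 4 groups, and CD47 was highest in replicate 1 in all 4. Among the 12993 genes whose mean log2 value reached 5, 8.76% were lowest and 9.49% highest in replicate 2 throughout, and 4.61% highest in replicate 1, so these patterns were shared by many genes. After removal of group means, CD38 and IL3RA had a Pearson correlation of -0.76 over the 16 libraries, against 0.25 with the group means left in. CD38 and LILRB4 stood at -0.67 and CD47 and PDCD1 at -0.68 after removal of group means, which are descriptions over libraries that share their groups and numbers. What the number marks is not in the labels.

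**Figure D4:**
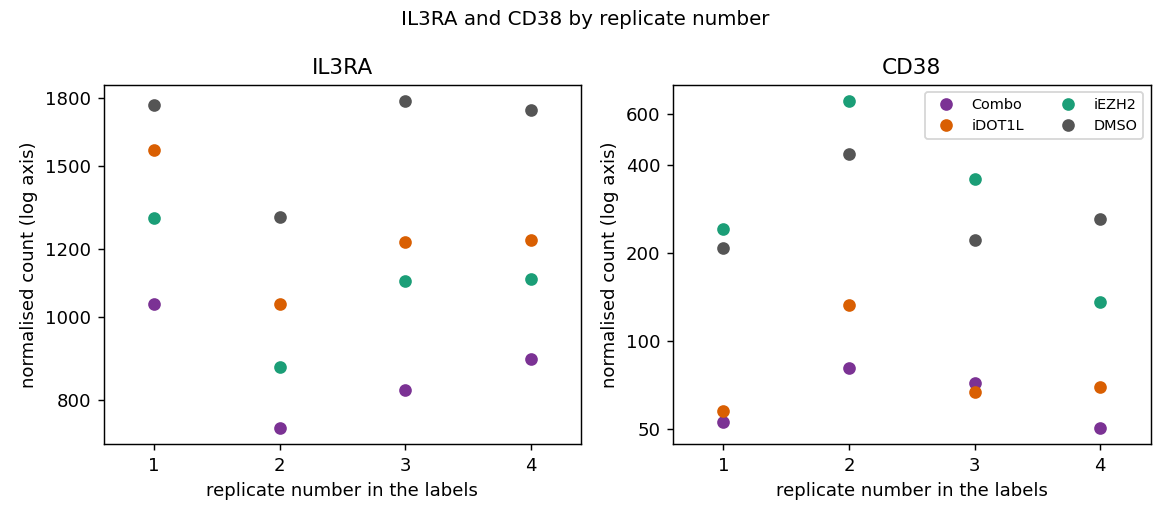
Normalised counts of IL3RA and CD38 (vertical, log axis) by the replicate number in the labels (horizontal), with 1 point per library and colour for the group. In replicate 2 IL3RA is at its lowest and CD38 at its highest within each group.

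Genes most like each called member over the 16 libraries were found among 11713 protein-coding genes whose mean log2 value reached 5. The libraries share their groups, so these are descriptions. IL3RA was most like RNASET2 (Pearson r = 0.991), an endoribonuclease gene, and HMGCS1 (0.99), the gene of an enzyme early in cholesterol synthesis. RNASET2 averaged 2696 ± 437 with Combo, 3838 ± 635 with iDOT1L and 3283 ± 555 with iEZH2, against 5359 ± 667 normalised counts with DMSO. CD38 was most like ATF5 (0.966), a stress-linked transcription factor gene, and SERBP1 (0.965). CD47 was most like SORL1 (0.952), a sorting receptor gene, and IRS2 (0.944), an adaptor of insulin signalling. SORL1 averaged 1425 ± 305 with Combo and 1873 ± 461 with iDOT1L, against 518 ± 159 with iEZH2 and 531 ± 60.0 with DMSO. LILRB4 was most like PPP1R9B and P2RY8 (0.948 each), and PDCD1 most like FASN (0.936), the fatty acid synthase gene, and CTDSP1 (0.919).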

How the data were processed

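RNA of Molm14 cells was sequenced in 16 libraries, 4 per group. The deposited table holds log2 values that the authors made comparable between libraries and stabilised for variance. The submitters' processing notes name kallisto, DESeq2 and hg38; the sources used here give neither versions nor the transcript annotation. The lowest value, 6.28, stands for a count of 0. Values were turned back into normalised counts by inverting that transformation. Low values then lay on even steps, but only 62.6% to 66.5% were within 0.1 read of whole numbers, so no count test was run and limma was used, as set for values that are not counts. Symbols and GRCh38 positions came from GENCODE v29, which 20784 of 22445 IDs matched.

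Genes that exceeded a normalised count of 1 in 4 or more libraries were fitted with limma 3.58.1 in R 4.3.3 (trend and robust moderation) on log2(normalised count + 1), with 4 group means and 12 residual degrees of freedom; the step was tested on simulated data. Benjamini-Hochberg adjustment ran over 22331 genes in each of 7 comparisons. Alternatives were the replicate number as a block, a pseudocount of 5, no filter, quantile normalisation, the deposited scale, and leaving out each library. Deviations of libraries with the same number were correlated between groups over the 12993 genes whose mean log2 value reached 5. The correlation was above 0.1 in every pair for iDOT1L and DMSO (lowest 0.172), iEZH2 and DMSO (0.119) and iDOT1L and iEZH2 (0.142). For Combo it was 0.395 to 0.458 in replicate 2 and 0.215 to 0.264 in replicate 4. In replicates 1 and 3 of Combo it was 0.026 to 0.125, so not every pair passed 0.1. Over all genes tested the lowest were 0.018 to 0.031 for the 3 pairs of groups without Combo. Pairing was read from the first set, so it rests on the data and on that choice of genes.

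The members and gene lists (partners, other antigens, other checkpoint genes, LILR, Siglec and TIM families, ectoenzymes, markers of monocytic, T, B, natural killer, erythroid, megakaryocyte and stromal cells, and genes of the line) were chosen with earlier results of these data known. Named from each list were all partners, apart from items not reported here, and up to 3 called genes with the lowest adjusted p in each comparison with DMSO, plus the 2 genes most like each member called against DMSO. A gene sharing over 20% of its 31-base words with other genes was taken as uncertain. Promoters came from RefSeq (GRCh38.p14). The extraction protocol times RNA isolation from a sort that the treatment text does not mention; the treatment text was followed, and the conflict was not resolved.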

Additional observations from a re-analysis of the deposited data

Results flagged for a closer look

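Of 40 groups of 4 libraries (10 members in 4 groups), 6 held a library that lay far from the other 3, its gap to the nearest, as a share of the group's whole range, being above Dixon's 95% critical value. Chance flags about 1 group in 20. No explanation was tested for any of them.

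CD38 in iDOT1L replicate 2 was at 133 normalised counts, against 57.7 to 70.0 in the other iDOT1L libraries, and the call against DMSO was kept in all 8 fits that left out a library of either group. IL3RA in DMSO replicate 2 was at 1308, against 1743 to 1786 in the other DMSO libraries, and the Combo call was likewise kept in all 8. LILRB4 in Combo replicate 1 was at 360.1, against 503 to 509.9 in the other Combo libraries. Without it Combo was called above iEZH2 (log2 difference 0.62, adjusted p = 0.0379), a difference that was 0.49 with an adjusted p of 0.0968 over all libraries. The remaining 3 were of genes with few reads: CD34 in Combo replicate 1 at 1.54 and in iDOT1L replicate 3 at 27.1, and PROM1 in Combo replicate 3 at 5.33 normalised counts.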

How the results depend on the processing

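The 15 calls among the members over the 7 comparisons kept their direction in every alternative. Under the 5 other settings 73 of 75 values stayed called, the exceptions being PDCD1 in Combo against iEZH2 with a pseudocount of 5 and on the deposited scale. In fits that left out 1 library of either group 105 of 120 stayed called. The 15 losses were of IL3RA and LILRB4 in iEZH2 against DMSO and PDCD1 in Combo against iEZH2. Without single libraries the members called ran from 0 to 2 for iEZH2 against DMSO and from 0 to 2 for Combo against iDOT1L, and the cause was not tested.

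The replicate block raised the members called in Combo against iDOT1L to 3 (IL3RA, LILRB4 and CD44) where 10.0% of all genes were then called, and in Combo against iEZH2 to 5 (IL3RA and LILRB4 added) where 9.57% were. The numbers were not taken as pairs for these 2. Deviations in Combo replicates 2 and 4 correlated above 0.1 with every other group, but those in replicates 1 and 3 did not throughout. Elsewhere among the members it changed the calls of IL3RA in iDOT1L against DMSO and CD44 in iDOT1L against iEZH2 alone.

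Signs turned in no called value. Among uncalled values PROM1 had -0.14 in iEZH2 against DMSO after quantile normalisation, 0.03 and 0.0 in Combo against DMSO with a pseudocount of 5 and on the deposited scale, and 0.0 in Combo against iEZH2 on that scale, and CD47 had 0.0 in Combo against iDOT1L after quantile normalisation. Without single libraries, log2 fold changes against DMSO ran over -0.02 to 0.04 for CD33 with iDOT1L, and with iEZH2 over -0.04 to 0.0 for CD33, -0.24 to 0.52 for CD38 and -0.33 to 0.54 for PROM1. With Combo they ran over -0.41 to 0.48 for CD34, -0.47 to 0.29 for PROM1 and -0.23 to 0.04 for HAVCR2, and against iEZH2 over -0.57 to 0.33 for PROM1. The interaction ran over -0.04 to 0.17 for IL3RA, -0.04 to 0.09 for CD47, -0.15 to 0.10 for CD44 and -0.07 to 0.58 for PDCD1. Quantile normalisation moved the split of all calls in Combo against DMSO to 1824 higher and 1703 lower, where it had been 1613 and 1966. Depth limits PDCD1, CD34 and PROM1, whose group means were at most 14.96 normalised counts.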
